A study of Mus musculus with 1073 samples.

Results

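The Notch pathway was followed through 10 of its genes across the mouse yolk sac between embryonic days E7.25 and E10.5. They comprised 4 receptors (Notch1, Notch2, Notch3 and Notch4), 4 ligands (Dll1, Dll4, Jag1 and Jag2) and 2 genes that the pathway switches on (Hey1 and Hes1). They were taken as a named list, and all 10 were among the 15967 genes that the authors kept after filtering. The data were single-cell RNA-sequencing libraries of sorted yolk sac cells, each made from 1 cell on a microfluidic capture chip, with 926 cells kept of 1073 captured. All cells fell into 13 populations by stage and surface phenotype, and no embryo or pool was named for a cell, so each population counted as 1 sample and no test between populations was made.

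The E7.25 (73 and 74 cells in 2 sequencing lanes) and E7.75 (140 cells) populations were GFP+ mesodermal derivatives from Flk1-GFP/+ embryos, in which GFP is made from the locus of Flk1, a receptor for vascular endothelial growth factor that is also called Kdr. All later populations came from C57BL/6 embryos. Haematopoietic progenitor/colony forming cells (HPC) were sorted as TER119-CDH5+CD41+ at E8.25 (73 cells) and E8.5 (89 cells), and as TER119-CDH5-CD45+CD41low at E9.5 (46 cells) and E10.5 (87 cells), so the early HPC gate required the endothelial protein CDH5 and the late one excluded it. Primitive erythrocytes (EryP) were CD41-CDH5-TER119+ at E8.5 (66 cells) and also CD45- at E10.5 (3 cells). Megakaryocytes (Mk) were TER119-CDH5-CD41+ at E8.5 (37 cells) and TER119-CDH5-CD45-CD41high at E10.5 (73 cells), and macrophages (Mac) were TER119-CDH5-CD41-CD45+ at E10.5 (25 cells). Endothelium (Endo) was TER119-CD41-CDH5+ at E8.5 (79 cells) and also CD45- at E10.5 (61 cells).

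Notch receptors are single-pass membrane proteins that bind Delta-like (Dll) and Jagged (Jag) ligands on a touching cell. Binding lets ADAM proteases and then gamma-secretase cut the receptor, and the freed intracellular part joins the DNA-binding protein RBPJ to switch on Hes and Hey repressors. In embryonic vessels the pathway is best known for arterial identity and for the choice between tip and stalk cells, and in the aorta it is needed for definitive blood formation.

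Each library held 483830 to 5943204 reads assigned to genes, with a median of 1887348. Expression is given as mean CPM over cells, the authors' normalised value in which every cell's counts were multiplied by 1 factor of its own, and as the share of cells with at least 1 count. Intervals on shares are exact (Clopper-Pearson) at 95%, and they cover counting error over cells and no difference between embryos. One flow cell was used for E7.25 and for both E8 stages, and a second one for E7.75, E9.5 and E10.5, so a difference between E7.25 and E7.75, or between E8.5 and E10.5, cannot be told apart from the sequencing run. Each population from E8.25 on was read in 1 lane, which only Mac and E10.5 EryP shared, so a difference between other populations cannot be told apart from the lane either. No index pair was used by 2 cells of the same lane. The labelled cell types held their markers: the 5 Endo markers (Cdh5, Pecam1, Tek, Kdr and Plvap) were found on average in 100% and 99.3% of E8.5 and E10.5 Endo cells, the 4 HPC markers in 87.3% to 96.2% of HPC cells, the 5 Mk markers in 71.9% and 98.9% of E8.5 and E10.5 Mk cells, and the 4 Mac markers in 98% of Mac cells. Endo markers were also found on average in 89.0% and 89.2% of E8.25 and E8.5 HPC cells, and the 4 EryP markers in 97.97% of E8.5 Mk and 63.0% of Mac cells.

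The promoters of Notch4 and Dll4 are printed because their shares were highest in endothelium, followed by the E8.25 and E8.5 HPC, which were sorted on CDH5. For Notch4 the intervals of E8.5 and E9.5 HPC overlapped, so its share was not set apart by that gate. The promoter windows at hand, from RefSeq on GRCm38.p6 (250 bases before to 50 after the start site), covered 8 of the 10 members in 9 entries. Windows for Hey1 and Hes1 were not among them. Bases 110 to 1 before the start site of Dll4 (chr2:119325674-119325783, + strand) and from 110 before to 3 after that of Notch4 (chr17:34564185-34564297, + strand) read, 5′ to 3′, with a TGACTCA motif in capitals:
Dll4: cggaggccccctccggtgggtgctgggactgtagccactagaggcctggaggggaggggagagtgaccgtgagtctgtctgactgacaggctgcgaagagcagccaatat
Notch4: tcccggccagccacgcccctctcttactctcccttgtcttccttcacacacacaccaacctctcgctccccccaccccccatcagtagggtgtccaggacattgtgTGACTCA
Among the 9 windows, searched on both strands, TGACTCA, the motif bound by AP-1 factors, was found only in that of Notch4. There it ran from 4 bases before to 3 after the start site, and it was found in 5.2% of 32851 promoter windows of the same length. The Notch4 locus given below starts at 34564268, before this RefSeq start site. TGGGAA, the core bound by RBPJ, was in 0 of 9 member windows and 25.6% of all windows. AGATAA, which GATA factors bind, was in 0 of 9 and 11.2%, and CCGGAA, which ETS factors bind, in 0 of 9 and 14.9%. A match is a description of the letters in the window and not of a bound site.

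Of the 4 receptors, Notch2 was found in nearly all cells of most populations, Notch1 and Notch4 were highest in endothelium, and Notch3 was a gene of the early mesoderm. Notch2 (chr3:98013527-98150361, + strand) was highest in the E7.25 mesodermal derivatives, with a mean of 215 CPM at E7.25 (lower quartile 104.3, median 177, upper quartile 274 CPM over cells) and 123.9 CPM at E7.75 (median 105.7). It was found in 100% and 99.3% of those cells. The HPC populations kept to a narrow band, with means of 36.0, 41.9, 41.4 and 48.1 CPM at E8.25, E8.5, E9.5 and E10.5 and with Notch2 in at least 95.5% of cells. Levels were lower in E8.5 Mk (21.8 CPM), E10.5 Mk (12.4 CPM) and E8.5 EryP (10.7 CPM), in which Notch2 was still found in 89.2%, 72.6% and 84.8% of cells. In the 3 E10.5 EryP cells it had 1 count in 1 cell.

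In endothelium Notch2 had opposite shares at the 2 stages. It was found in 93.7% (95% interval 85.8 to 97.9) of E8.5 Endo cells, at a median of 13.6 CPM, and in 24.6% (95% interval 14.5 to 37.3) of E10.5 Endo cells, at a median of 0 CPM. E10.5 Endo thus had the lowest share of any population of more than 3 cells, and its interval lay below those of all 11 of the others. The interval of its share was also below that of E8.5 Endo when cells were thinned to 800000 counts, at 24.6% (95% interval 14.1 to 37.8) against 87.3% (95% interval 78.0 to 93.8).

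The high mean of Notch2 in Mac rested on few cells. Over the 25 Mac cells the mean was 157.9 CPM, the lowest cell had 0, the median was 31.6 and the highest cell had 2691 CPM. Without that 1 cell the mean was 52.4 CPM, close to the 48.1 CPM of E10.5 HPC.

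**Figure D1:**
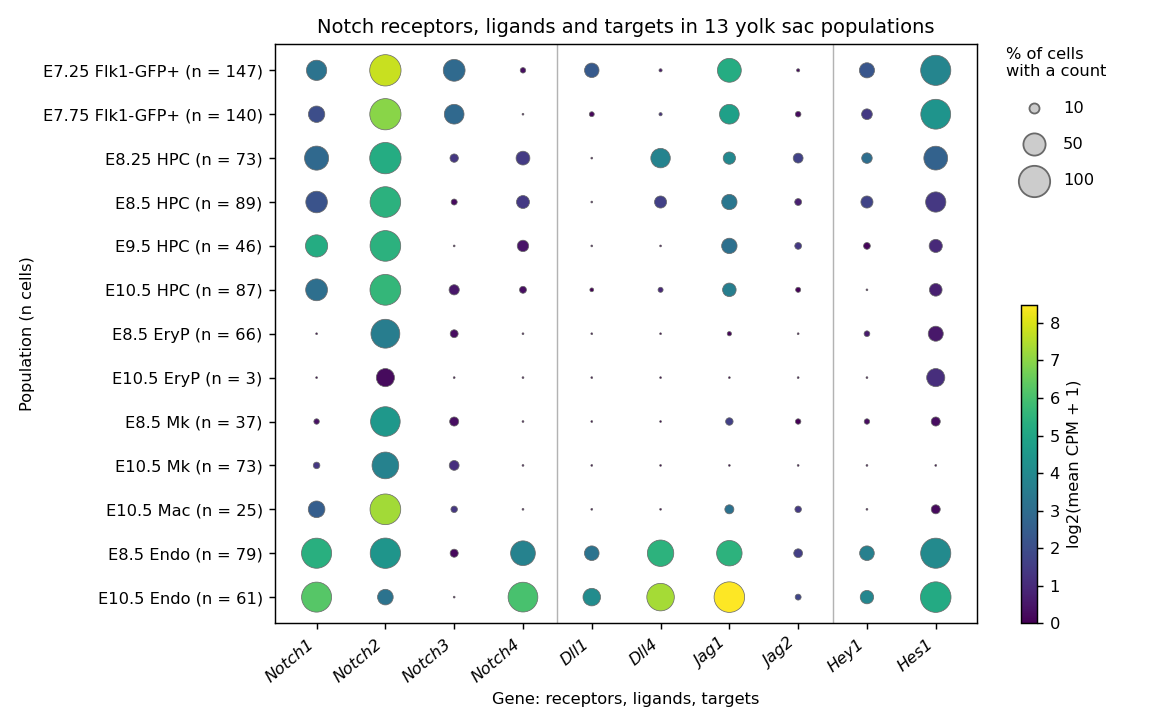
Each dot gives 1 of the 10 genes (x axis, receptors, ligands and targets from left to right) in 1 of 13 populations (y axis), with its area for the percentage of cells with at least 1 count and its colour for log2(mean CPM + 1). Notch2 dots were large in every row but E10.5 Endo and E10.5 EryP, Notch4 and Dll4 dots were largest in the 2 Endo rows, and Jag1 in E10.5 Endo had the highest mean, 356 CPM.

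Notch1 (chr2:26457903-26516663, - strand), the receptor that acts in arterial endothelium and early blood formation, was found in 92.4% (95% interval 84.2 to 97.2) of E8.5 and 91.8% (95% interval 81.9 to 97.3) of E10.5 Endo cells. In those cells its level had a median of 20.1 CPM (highest cell 379) and 25.7 CPM (highest cell 633). Its share was next highest in E8.25 HPC, at 58.9% (95% interval 46.8 to 70.3), whose interval lay below that of both Endo populations. The shares in E8.5, E9.5 and E10.5 HPC were 47.2%, 50.0% and 48.3%, and those in E7.25 and E7.75 cells 41.5% and 27.1%, with intervals that overlapped from 1 neighbour to the next. Notch1 was found in 28.0% of Mac cells, 2.70% and 4.11% of E8.5 and E10.5 Mk cells, and none of the 66 E8.5 EryP cells, for which the 0 sets a limit of 4.55% (3 cells of the total). The median depth of the EryP cells, 2099062 reads, was above the 1874645 of E8.5 Endo.

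Notch1 in E9.5 HPC was carried by a few cells. The mean was 35.9 CPM, the median 0.0951 and the highest cell 798 CPM, and 87.7% of the summed CPM lay in the highest-ranking 10% of cells. The 6 of 46 cells above 50 CPM also had a higher mean Notch2 level (82.4 CPM) than the other 40 (35.3 CPM). Their median summed level of the HPC markers was 843 CPM against 510.3 CPM. Sums were also higher for Mac (152.5 against 48.9 CPM), Endo (155.8 against 68.5 CPM) and Mk markers (84.3 against 18.2 CPM). The sum of visceral endoderm markers was lower (42.1 against 69.3 CPM). Their median depth was 1988780 against 3227538 reads, and the part of depth in these differences was not tested.

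Notch4 (chr17:34564268-34588503, + strand), a receptor largely restricted to endothelium, was found in 62.0% (95% interval 50.4 to 72.7) of E8.5 Endo and 90.2% (95% interval 79.8 to 96.3) of E10.5 Endo cells. Its mean was 12.6 CPM in E8.5 Endo (median 1.16, highest cell 122.9) and 64.0 CPM in E10.5 Endo (median 24.7, highest cell 501), so the 2 intervals of the shares did not overlap although the ranges of the cells did. Both shares lay above that of every other population. In HPC the share was 19.2%, 16.9%, 13.0% and 4.60% at E8.25, E8.5, E9.5 and E10.5, and neighbouring stages had overlapping intervals. Notch4 was found in 0 of 140 E7.75 cells, 0 of 66 E8.5 EryP, 0 of 37 and 0 of 73 Mk and 0 of 25 Mac cells, which allow shares of up to 2.14%, 4.55%, 8.11%, 4.11% and 12.0%.

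Notch3 (chr17:32120820-32166852, - strand), known for its role in vascular smooth muscle and pericytes, was found in 48.3% (95% interval 40.0 to 56.7) of E7.25 and 39.3% (95% interval 31.1 to 47.9) of E7.75 cells, at means of 6.40 and 6.35 CPM. It was in at most 10.3% of the cells of every later population with more than 3 cells, and in 0 of 61 E10.5 Endo and 0 of 46 E9.5 HPC cells. The gap between E7.75 cells and the next population in the order was larger than their intervals.

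Per kilobase of exon, the receptor mixture differed between endothelium and all other populations. Notch2 gave 93.4% and 92.0% of the summed receptor CPM per kilobase in E7.25 and E7.75 cells, 79.7% in E8.25 HPC, 88.2% in E10.5 HPC and 96.6% in Mac. In E8.5 Endo the mixture was 44.9% Notch1, 29.9% Notch2 and 25.0% Notch4, and in E10.5 Endo it was 37.6% Notch1, 5.53% Notch2 and 56.9% Notch4. E9.5 HPC, with 39.3% Notch1, stood between them through the few cells described above.

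Among the ligands, Dll4 (chr2:119325784-119335962, + strand), the Delta-like ligand of arterial and tip cells, was an Endo and early HPC gene. Its mean was 42.3 CPM in E8.5 Endo (median 5.94, highest cell 519.9) and 160.4 CPM in E10.5 Endo (median 22.8, highest cell 1813), with shares of 70.9% (95% interval 59.6 to 80.6) and 77.0% (95% interval 64.5 to 86.8) that overlapped. In HPC the share was 38.4% (95% interval 27.2 to 50.5) at E8.25, 14.6% (95% interval 8.01 to 23.7) at E8.5, 0 of 46 cells at E9.5 (allowing up to 6.52%) and 2 of 87 cells at E10.5. The intervals of the first 2 stages, which were sorted with the same gate, did not overlap. Both were read on the same flow cell but in different lanes, from which the stage cannot be told apart. Mean levels in HPC were 12.9 CPM at E8.25 and 2.02 CPM at E8.5. Dll4 was found in 1 E7.25 and 1 E7.75 cell and in 0 EryP, Mk and Mac cells.

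Jag1 (chr2:137081456-137116644, - strand), the Jagged ligand of endothelium and mesenchyme, had the highest mean of all members. In E10.5 Endo its mean was 356 CPM, the lower quartile 19.8, the median 137.5 and the highest cell 2512 CPM, and in E8.5 Endo the mean was 42.5 CPM, the median 6.38 and the highest cell 509 CPM. The shares of cells, 95.1% (95% interval 86.3 to 98.97) and 65.8% (95% interval 54.3 to 76.1), had intervals that did not overlap. Unlike Dll4, Jag1 was also a gene of the mesodermal derivatives, found in 57.8% (95% interval 49.4 to 65.9) of E7.25 cells at a mean of 36.0 CPM and in 39.3% (95% interval 31.1 to 47.9) of E7.75 cells at 26.7 CPM. In HPC the shares were 15.1%, 23.6%, 23.9% and 18.4% in order of stage, all overlapping. Single cells carried the mean at E8.25, which was 14.4 CPM with and 2.43 CPM without the highest cell, at E9.5, which was 7.55 and 2.46 CPM, and at E10.5, which was 11.0 and 3.30 CPM. Jag1 was found in 0 of 73 E10.5 Mk cells, which allows up to 4.11%.

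Dll1 (chr17:15367354-15376872, - strand), a Delta-like ligand of early mesoderm and of some arteries, was found in 21.1% (95% interval 14.8 to 28.6) of E7.25 cells and 2.14% (95% interval 0.444 to 6.13) of E7.75 cells. It was next found in 21.5% of E8.5 Endo and 31.1% of E10.5 Endo cells, at means of 8.30 and 16.1 CPM, and otherwise in 1 of 87 E10.5 HPC cells. The 31 E7.25 cells with Dll1 also had Jag1 and Hey1 more often than the other E7.25 cells, at 80.6% against 51.7% (intervals 62.5 to 92.5% and 42.3 to 61.1%) and 41.9% against 18.1% (intervals 24.5 to 60.9% and 11.6 to 26.3%). Only the Jag1 intervals did not overlap. Their median summed level of the 4 mesoderm markers (Foxf1, Pdgfra, Mesp1 and Mixl1) was 326 against 198 CPM, and the part of that difference in the shares was not tested. Jag2 (chr12:112907819-112929776, - strand) was found in at most 9.59% of the cells of any population and at most at a mean of 2.31 CPM.

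Per kilobase of exon the order of the ligands changed between the 2 Endo stages. In E8.5 Endo Dll4 had the highest level of the 4, at 11.0 CPM per kilobase against 7.29 for Jag1 and 1.97 for Dll1. In E10.5 Endo Jag1 was highest at 61.1 CPM per kilobase, with Dll4 at 41.6 and Dll1 at 3.81. Jag1 was 84.8% of the summed ligand level per kilobase in E7.25 cells.

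**Figure D2:**
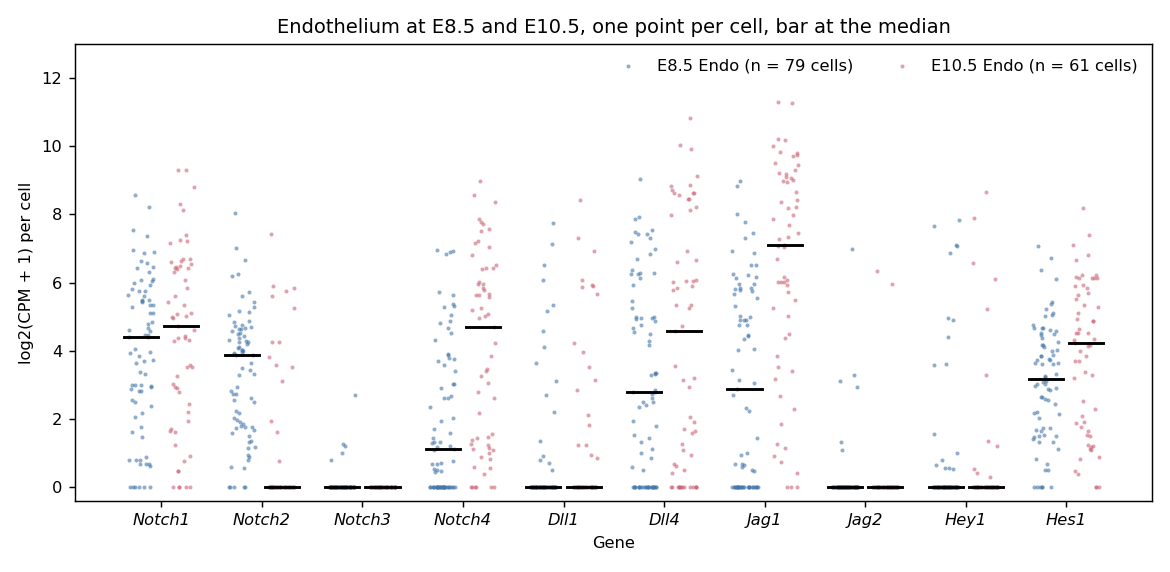
Points are single cells of E8.5 Endo (79) and E10.5 Endo (61), with log2(CPM + 1) on the y axis for each of the 10 genes on the x axis and a bar at the median over cells. Medians of Jag1 (6.38 and 137.5 CPM) and Notch4 (1.16 and 24.7 CPM) were higher at E10.5 and that of Notch2 lower (13.6 and 0 CPM), while the cells of both stages overlapped for every gene.

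The targets differed from each other in how widely they were found. Hes1 (chr16:30064384-30067796, + strand), a repressor that answers to Notch and to other signals, was found in 92.5% (95% interval 87.0 to 96.2) of E7.25, 90.7% (95% interval 84.6 to 95.0) of E7.75, 92.4% (95% interval 84.2 to 97.2) of E8.5 Endo and 95.1% (95% interval 86.3 to 98.97) of E10.5 Endo cells, with overlapping intervals. Its share in HPC was 57.5%, 41.6%, 17.4% and 16.1% at E8.25, E8.5, E9.5 and E10.5, with mean levels of 5.14, 1.59, 0.978 and 0.682 CPM. Without the highest cell the means at E9.5 and E10.5 were 0.597 and 0.409 CPM. The E8.25 HPC interval (45.4 to 69.0%) lay below the mesodermal and Endo intervals and above that of E10.5 HPC (9.09 to 25.5%), although neighbouring HPC stages overlapped. Hes1 was found in 22.7% of E8.5 EryP cells at a mean of 0.474 CPM, so the shares in E9.5 and E10.5 HPC were no higher than in erythroid cells. In E10.5 Mk it was found in 0 of 73 cells, which allows up to 4.11%.

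Hey1 (chr3:8663359-8667256, - strand), a Notch target of arterial endothelium, was found in fewer cells than Hes1 in every population with more than 3 cells in which either was found. Its shares were 23.1% (95% interval 16.6 to 30.8) at E7.25, 11.4% (95% interval 6.68 to 17.9) at E7.75, 21.5% (95% interval 13.1 to 32.2) in E8.5 Endo and 18.0% (95% interval 9.36 to 30.0) in E10.5 Endo, which overlapped from neighbour to neighbour. The E8.25 and E8.5 HPC shares were 11.0% and 14.6%, against 3.03% of E8.5 EryP cells, and Hey1 was found in 0 E10.5 HPC, E10.5 Mk and Mac cells, which allow up to 3.45%, 4.11% and 12.0%. Its mean in E10.5 Endo was 14.0 CPM with and 7.46 CPM without the highest cell.

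In E8.5 Endo, E10.5 Endo, E8.5 HPC and E7.75 cells, those with Notch1, Notch4 or Dll4 mostly had the targets more often. The intervals overlapped for every pair in these populations. In E8.25 HPC, Hes1 was found in 74.4% of 43 cells with Notch1 and 33.3% of 30 without it. The intervals there (58.8 to 86.5% and 17.3 to 52.8%) did not overlap. These shares are given as a description because the genes were measured in the same cells. In E8.5 HPC, Hes1 was found in 57.1% of 42 cells with Notch1 and 27.7% of 47 without it (intervals 41.0 to 72.3% and 15.6 to 42.6%). The median depths were 1568405 and 1549754 reads. In E10.5 Endo, Hey1 was found in 21.3% of 47 cells with Dll4 and 7.14% of 14 without, with overlapping intervals (10.7 to 35.7% and 0.181 to 33.9%). The mean Hes1 level was 41.2 against 12.5 CPM. The same split also separated the median depth (2200950 against 1647642 reads) and the summed Endo marker level (median 4083 against 2503 CPM), and their part in the result was not tested. Of 6 pairs of a target with Notch1, Notch4 or Dll4, the target was more frequent beside the gene in 5 in E8.5 Endo, 4 in E10.5 Endo and 5 in E8.5 HPC. In E7.75 cells it was more frequent in 1 of 2 pairs. Some of these were near ties, such as Hey1 in E8.5 HPC, in 15.4% of 13 cells with Dll4 and 14.5% of 76 without.

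Cells that held both a receptor and a ligand were most of the endothelium and a minority of later blood cells. They were 92.4% (95% interval 84.2 to 97.2) of E8.5 Endo and 98.4% (95% interval 91.2 to 99.96) of E10.5 Endo cells. In HPC the share was 53.4% (95% interval 41.4 to 65.2) at E8.25, 37.1% (95% interval 27.1 to 48.0) at E8.5, 28.3% (95% interval 16.0 to 43.5) at E9.5 and 18.4% (95% interval 10.9 to 28.1) at E10.5. It was 61.9% and 42.1% of E7.25 and E7.75 cells, 8.11% and 0% of E8.5 and E10.5 Mk, 12.0% of Mac and 0 of 66 E8.5 EryP cells. A receptor, a ligand and a target were found together in 87.3% and 93.4% of Endo cells and in 42.5%, 21.3%, 6.52% and 3.45% of HPC cells by stage. In contrast, a receptor of any kind was found in at least 78.1% of cells in every population of more than 3 cells. The share with a receptor and a ligand therefore mostly followed the share with a ligand of any kind. That share was 93.7% and 98.4% of E8.5 and E10.5 Endo cells, and 53.4% and 19.5% of E8.25 and E10.5 HPC cells. Outside endothelium Notch2 was the receptor found in the most cells, whereas 1 of 79 E8.5 and 0 of 61 E10.5 Endo cells held Notch2 without Notch1 or Notch4.

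The combinations in endothelium differed between the stages, as did the shares of single genes. Notch1 with Notch2 was found in 87.3% (95% interval 78.0 to 93.8) of E8.5 and 21.3% (95% interval 11.9 to 33.7) of E10.5 Endo cells, and Notch1 with Notch4 in 57.0% (95% interval 45.3 to 68.1) and 82.0% (95% interval 70.0 to 90.6). Most E8.5 Endo cells (54.4%) held 3 receptors and most E10.5 Endo cells (70.5%) held 2. For ligands, Dll4 with Jag1 was found in 43.0% and 73.8%, and Dll4 without Jag1 in 27.8% (95% interval 18.3 to 39.1) and 3.28% (95% interval 0.400 to 11.3). The product of the single-gene shares was 57.3% and 82.8% for Notch1 with Notch4, and 46.7% and 73.3% for Dll4 with Jag1. These were close to the shares found together. In E8.25 HPC most Dll4 was found without Jag1 (34.2% of cells against 4.11% with both).

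**Figure D3:**
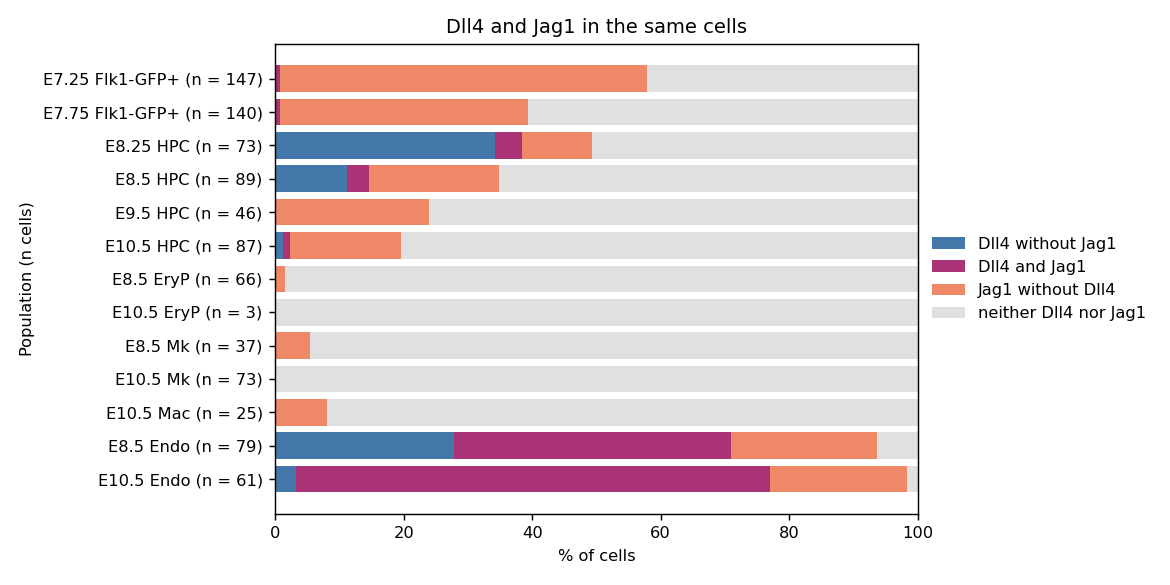
Stacked bars give the percentage of cells (x axis) of each population (y axis) that held both Dll4 and Jag1, Dll4 alone, Jag1 alone or neither. Cells with both ligands were 43.0% of E8.5 and 73.8% of E10.5 Endo, Dll4 alone was most frequent in E8.25 HPC at 34.2%, and Jag1 alone made up most of the ligand-bearing E7.25 and E7.75 cells.

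The few E10.5 Endo cells that held Notch2 differed from the rest in the mean levels of some members, while the intervals of the shares overlapped for every other member. The 15 cells with Notch2 had a mean Notch4 level of 21.9 CPM and the 46 without it 77.7 CPM. Mean Hes1 was 14.7 against 41.1 CPM, and Dll4 was found in 60.0% against 82.6% of cells, with overlapping intervals. The shares were 86.7% against 91.3% for Notch4 and 86.7% against 97.8% for Hes1. Dll1, in 46.7% against 26.1% of cells, and Jag2, in 1 cell of each set, went the other way. The cells with Notch2 had a median summed HPC marker level of 157.6 against 25.6 CPM, and an Endo marker level of 2984 against 3750 CPM. The part of these markers in the member differences was not tested.

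Early HPC were not uniform for the pathway. In E8.25 HPC, Notch1 was found in 78.6% (95% interval 59.0 to 91.7) of the 28 cells with Dll4 and in 46.7% (95% interval 31.7 to 62.1) of the 45 without it. Hes1 was found in 82.1% (95% interval 63.1 to 93.9) against 42.2% (95% interval 27.7 to 57.8). Only the Hes1 intervals did not overlap. Notch4 was found in 32.1% against 11.1% and Hey1 in 21.4% against 4.44%, while Jag1 went the other way at 10.7% against 17.8%.

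The E8.5 HPC split by Dll4 in the same directions for most members. Notch1 was found in 84.6% of the 13 cells with Dll4 and 40.8% of the 76 without it, Notch4 in 38.5% and 13.2%, and Hes1 in 69.2% and 36.8%. Endo markers went with Dll4 at both stages: their median summed level was 1135 against 464 CPM at E8.25 and 986 against 355 CPM at E8.5. HPC markers did not follow in that direction, at 281 against 335 CPM and 331 against 447 CPM. Splitting by Notch1 instead gave median EryP marker sums of 22.7 CPM with and 269.6 CPM without Notch1 at E8.25, and 62.3 and 818 CPM at E8.5, so erythroid markers were higher in the cells without the receptor. The part of the marker differences in the member differences was not tested.

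**Figure D4:**
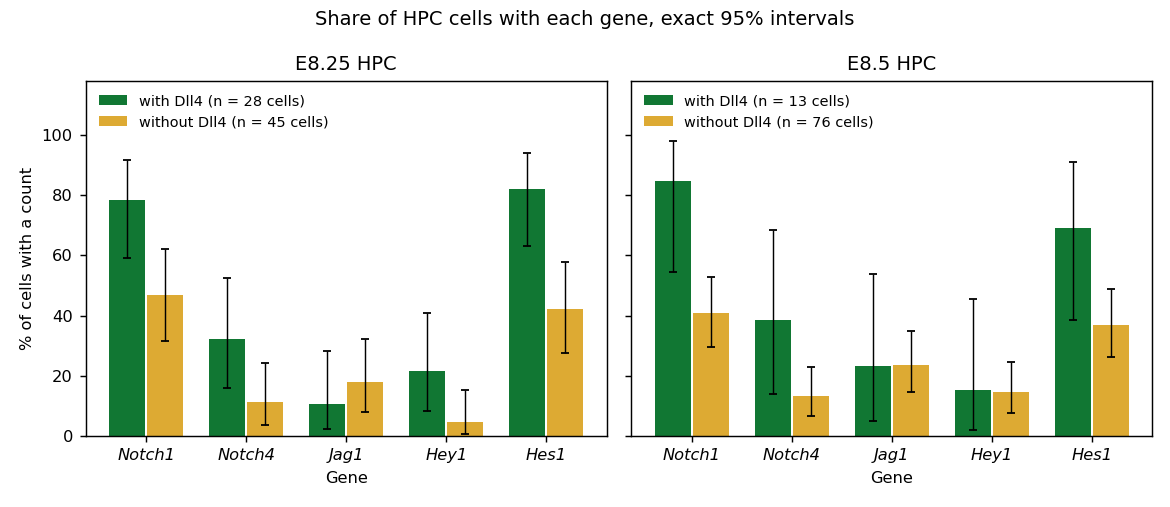
The percentage of cells with each gene (y axis, bars from 0 with exact 95% intervals) is given for HPC cells with and without Dll4 at E8.25 (28 and 45 cells) and E8.5 (13 and 76 cells), for the genes on the x axis. Notch1, Notch4 and Hes1 were more frequent in cells with Dll4 at both stages, and only for Hes1 at E8.25 and Notch1 at E8.5 did the 2 intervals not overlap.

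The mesodermal populations were divided by haemato-endothelial genes, into a class with 4 or more detected out of 6 transcription factor and receptor genes (Tal1, Lmo2, Gata2, Fli1, Hhex and Kit) and the rest. It held 86 cells against 61 others at E7.25 and 91 against 49 at E7.75, with 23 and 25 cells just outside it (3 genes) and 25 and 20 just inside it (4 genes). Notch1 was found in 51.2% (95% interval 40.1 to 62.1) of the class and 27.9% (95% interval 17.1 to 40.8) of the other cells at E7.25. At E7.75 the shares were 34.1% (95% interval 24.5 to 44.7) and 14.3% (95% interval 5.94 to 27.2). Thus Notch1 was more frequent in the class at both stages, with intervals that overlapped slightly at each. Asking for 10 counts of every gene, the shares were 19.7% and 12.8% at E7.25, and 22.6% and 7.69% at E7.75.

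Jag1 and Hes1 went the other way, with share intervals that overlapped at both stages. Jag1 was found in 53.5% of the class and 63.9% of the others at E7.25, and 31.9% and 53.1% at E7.75. Hes1 was found in 89.5% and 96.7% at E7.25, and 89.0% and 93.9% at E7.75. Mean Jag1 was 23.8 CPM in the class and 53.3 CPM outside it at E7.25, and 15.3 and 48.0 CPM at E7.75. Mean Hes1 was 11.4 and 16.4 CPM at E7.25, and 13.1 and 32.0 CPM at E7.75. Notch2 had no common direction, at 234 against 187 CPM at E7.25 and 102.7 against 163 CPM at E7.75.

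Each mesodermal population was read in 2 lanes, and a few members differed between them. Notch1 was found in 53.4% of the 73 E7.25 cells of lane 6 and 29.7% of the 74 cells of lane 7, at means of 13.5 and 3.30 CPM and median depths of 1750258 and 1942296 reads. Within lane 6 the class and the other cells differed by 14.5 percentage points in Notch1 share, against 23.3 points in both lanes together. Hes1 at E7.75 had means of 9.20 CPM in lane 7 and 26.1 CPM in lane 8. Over all genes tested, 4.93% differed by more than 2-fold between the lanes at E7.25 and 6.39% at E7.75.

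A set of 11 comparisons of 2 populations asked how the members differed with stage and with lineage, taking a gene as different where its ratio of (mean CPM + 1) was past 2-fold and its mean over both populations was at least 10 CPM. A gene can pass this filter through 1 of the populations alone, which favours a difference for such a gene. Between E8.5 and E10.5 Endo, 34.1% of tested genes were past 2-fold (19.3% higher and 14.9% lower at E10.5), and of the 8 members tested 4 were higher at E10.5 and 1 was lower. The log2 ratios were 3.04 for Jag1, 2.25 for Notch4, 1.90 for Dll4 and 1.13 for Hes1, and -1.19 for Notch2. Notch1 (0.88), Dll1 (0.88) and Hey1 (0.25) were within 2-fold. Notch2 was within 2-fold when cells were thinned to 800000 counts (-0.99) and with a pseudocount of 10 CPM (-0.72), Hes1 with that pseudocount (0.82) and as a mean of log2 values over cells (0.75), and Dll1 was past it when thinned (1.09). The median over the 8 members was 1.00 and that over all tested genes 0.04 (quartiles -0.62 and 0.76). These stages were read on different flow cells, from which the difference cannot be told apart.

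**Figure D5:**
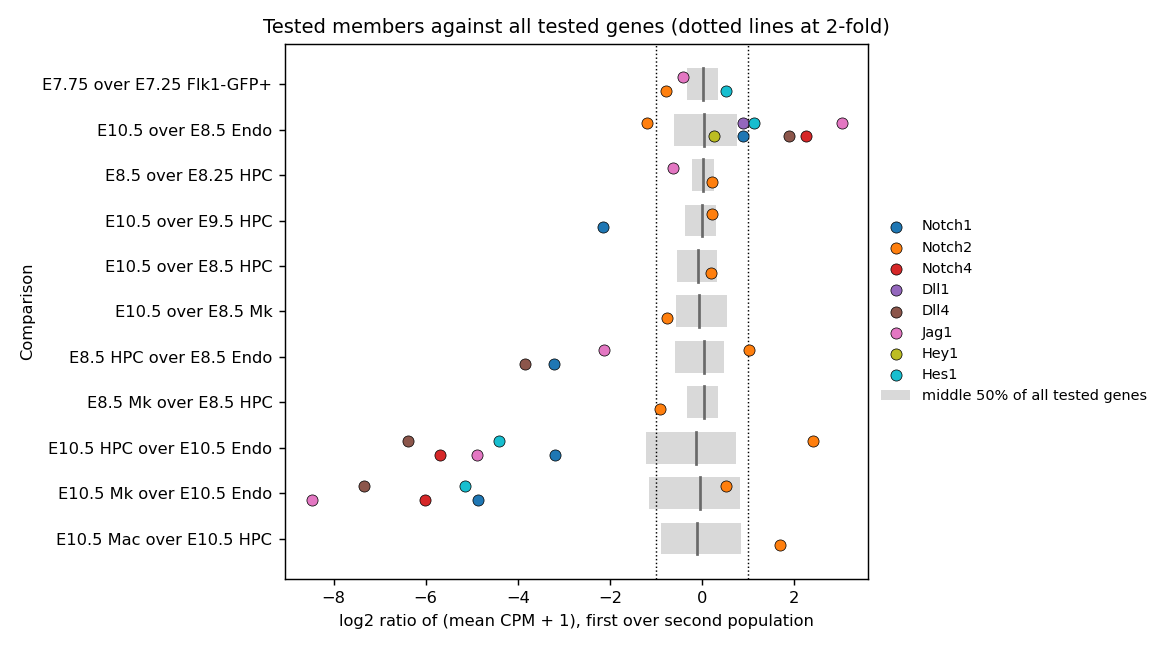
The x axis gives the log2 ratio of (mean CPM + 1), first over second population, for each of 11 comparisons (y axis), with a point for each tested member, a grey bar for the middle 50% of all tested genes, a line at their median and dotted lines at 2-fold. Members lay far to the left of the bar in the comparisons of HPC or Mk with Endo, except Notch2, which lay to the right of 0. Points of genes at 0 counts in E10.5 Mk (Jag1, Dll4, Notch4 and Hes1) take their place from the 1 CPM added.

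Within HPC the members showed few differences at this expression filter. From E8.25 to E8.5, on 1 flow cell but in different lanes, 5.22% of tested genes were past 2-fold (2.13% higher and 3.09% lower) and both tested members were within it, Notch2 at 0.21 and Jag1 at -0.62. From E9.5 to E10.5, likewise on 1 flow cell, 12.1% were past it (4.4% higher and 7.7% lower at E10.5). Notch1 was lower at E10.5 by a log2 ratio of -2.16, which rested on the 6 E9.5 cells above, and it was within 2-fold (-0.38) when log2 values were averaged over cells. Between the E8.5 and E10.5 HPC, 18.2% were past 2-fold (7.47% higher and 10.7% lower at E10.5) and Notch2, the only member tested, was at 0.19. In Mk, Notch2 was at -0.77 between E8.5 and E10.5 (-1.21 as a mean of log2 values), where 25.9% of genes were past 2-fold (14.6% higher and 11.4% lower), and between the mesodermal stages Notch2 (-0.79), Jag1 (-0.42) and Hes1 (0.52) were within it, where 8.56% were past it (3.78% higher and 4.78% lower).

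Lineages were next compared within 1 stage. In E8.5 HPC against E8.5 Endo, 25.3% of tested genes were past 2-fold (9.27% higher and 16% lower in HPC). Dll4 (-3.84), Notch1 (-3.21) and Jag1 (-2.12) were lower in HPC, and these 3 had means under 10 CPM in HPC, so they passed the filter only through Endo. Notch2 was higher in HPC (1.01), but within 2-fold with a pseudocount of 10 CPM (0.78). Dll1, under the filter, had 0 counts in the 89 E8.5 HPC cells, which allows up to 3.37% of cells, and a mean of 8.30 CPM in E8.5 Endo. In E10.5 HPC against E10.5 Endo, 47.8% were past 2-fold (19% higher and 28.8% lower). Dll4 (-6.38), Notch4 (-5.70), Jag1 (-4.89), Hes1 (-4.40) and Notch1 (-3.19) were lower in HPC, and Notch2 was again higher (2.40). Of the lower ones all but Jag1 passed the filter only through Endo, and Notch2, at 48.1 and 8.32 CPM, passed it only through HPC. The HPC mean of Jag1, 11.0 CPM, was also under 10 CPM without its highest cell. Without the highest cell of each gene the Jag1 ratio was -6.22 and the Dll4 ratio -7.06. The 2 HPC comparisons share no samples, and their HPC gates differed.

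In E10.5 Mk against E10.5 Endo, 48.3% of tested genes were past 2-fold (21.1% higher and 27.2% lower in Mk). Jag1, Dll4, Notch4 and Hes1 had 0 counts in the 73 Mk cells, which allows up to 4.11% of cells for each, against means of 356, 160.4, 64.0 and 34.6 CPM in Endo. Notch1 was at -4.88, and at -5.98 without the highest cell of each gene, since 206 of its 212 reads in Mk lay in 1 cell. Notch2 was within 2-fold at 0.53, but at 1.39 as a mean of log2 values. In E8.5 Mk against E8.5 HPC, where 13.9% were past 2-fold (5.34% higher and 8.58% lower), Notch2 was at -0.91, and past 2-fold as a mean of log2 values (-1.19), without the highest cell (-1.07) and with CPM from each cell's own total (-1.01). The E8.5 Mk cells had a median summed EryP marker level of 22997 CPM, and its part in the value was not tested. In Mac against E10.5 HPC, where 44.3% were past 2-fold (22.1% higher and 22.2% lower), Notch2 was at 1.69, but at -0.18 as a mean of log2 values over cells and at 0.17 without the highest cell of each gene.

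The other genes of the pathway, a list of 52 of which 42 were in the filtered table, were compared in the same way. Between E8.5 and E10.5 Endo, 8 of 29 tested were higher and 1 was lower, where 19.3% and 14.9% of all tested genes were. Psenen, a gamma-secretase subunit, was at 2.90, but at 1.61 without its highest cells, 1.53 when thinned and 0.96 as a mean of log2 values. Hey2, a further Hey repressor, was at 1.83, and at 0.55 as a mean of log2 values. Mfng, a glycosyltransferase that modifies Notch receptors, was at 2.02, but at -1.06 without its highest cells, so the direction rested on single cells. Adam17, a protease that can cut Notch, was at -1.27.

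In E10.5 HPC against E10.5 Endo, 1 of 29 tested pathway genes was higher and 12 were lower, where 19% and 28.8% of all tested genes were. Rbpj, the DNA-binding partner of all 4 receptors, was the one that was higher (1.21). Hey2 (-4.01), Egfl7 (-3.83), a secreted endothelial protein, and the coactivator Maml2 (-2.66) were among the lower ones. As means of log2 values Hey2 was within 2-fold (-0.76), and Psenen (0.60), Pofut1 (0.25), Mfng (2.18) and Ep300 (0.52) changed direction. In E10.5 Mk against E10.5 Endo, 0 of 29 were higher and 11 were lower, where 21.1% and 27.2% of all tested genes were. Among them were Maml2 (-3.69), Mfng (-3.56, but -0.81 without its highest cells) and Hey2, with 0 counts in 73 Mk cells and counts in 11 of 61 Endo cells. At E8.5, 7 of 24 were lower in HPC than in Endo and 0 were higher, where 16% and 9.27% of all tested genes were, with Numb (-1.76), an inhibitor of Notch, Egfl7 (-1.71) and the coactivator Maml1 (-1.52, but -0.51 as a mean of log2 values) the lowest.

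Between blood populations, the counts of pathway genes are again set beside those of all tested genes. In E8.5 Mk against E8.5 HPC, where 5.34% of all were higher and 8.58% lower, 1 of 24 was higher (the acetyltransferase gene Kat2b, 1.14, but 0.33 as a mean of log2 values) and 3 were lower (Mfng -2.60, Maml2 -1.69 and Egfl7 -1.50). In Mac against E10.5 HPC, 6 of 28 were higher and 2 lower, where 22.1% and 22.2% of all were, with the glycosyltransferase Rfng at 3.77 (1.04 without its highest cells) and Maml2 at -3.13. Rbpj had a mean of 237 CPM in Mac and 44.3 CPM in E10.5 HPC, and its log2 ratio was 1.25 without its highest cells. With stage, from E8.5 on, 2 of 25 pathway genes were higher in HPC (Neurl3 and Ncstn) and 3 lower (Egfl7, Adam10 and Maml2), where 7.47% and 10.7% of all were. In Mk 3 of 23 were lower, where 11.4% of all were (Crebbp, Adam10 and Maml3, the last at -0.071 without its highest cells). In each of the 3 remaining comparisons 1 pathway gene was lower and 0 were higher: Aph1b among 23 in E7.75 against E7.25 cells, Spen among 25 in E8.5 against E8.25 HPC, and Mfng among 25 in E10.5 against E9.5 HPC. Past 2-fold and lower were 4.78%, 3.09% and 7.7% of all genes in these comparisons, and as means of log2 values all 3 genes were within 2-fold (-0.43, -0.30 and -0.33).

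Genes with the population pattern most like each member were ranked by Pearson correlation of log2(mean CPM + 1) over 12 populations (without the 3 E10.5 EryP cells), which share flow cells and lanes, among 12193 genes. The first 3 for Notch4 were Gm13889, Npdc1 and A330009N23Rik (r of 0.99 each), and those for Dll4 included Gm43507 and the endothelial protocadherin Pcdh12 (0.99 each). For Jag1 they were Gm9844, Gm3788 and the frizzled receptor Fzd4 (0.97 each), and for Hes1 Hsd11b2, Ajuba and Cxxc4. Those for Hey1 included Nfib and Tns2, and those for Notch1 included Gm26742 and Mfap3. Notch2 was followed by Dcakd, Anpep and Rhebl1, and Dll1 by Ctgf, Prss12 and Dchs1. Only 2 of the 24 genes so ranked stayed among the first 3 with Spearman's rho.

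Some member counts may hold reads of other transcripts. The library kit did not mark strand, and exons of Notch1, Notch3, Dll1 and Dll4 share bases with transcripts of the opposite strand (0610009E02Rik and Gm13568, Gm17276, A930024N18Rik and Gm14207), while Notch2 shares bases with Gm42820 on its own strand. Reads from such shared bases cannot be told apart here.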

How the data were processed

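Per the study's methods, the authors dissociated yolk sacs with trypsin (E7 stages) or collagenase and dispase (later stages), sorted cells by flow cytometry and captured them on Fluidigm C1 chips whose sites were imaged. Nextera XT libraries, which do not mark strand, were read as paired ends, aligned with Rsubread to GRCm38 and counted with featureCounts, and cells were filtered with scater. The deposited read counts per gene are unnormalised and hold no molecular identifiers, so intervals cover counting error only. The deposited CPM values, a signal scale, were made by the authors as counts times 1 scran factor per cell, and they sum to 699615 to 4176737 per cell.

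Groups came from the stage and immunophenotype labels. The members and gene lists were chosen with earlier results of these data known. The text names the 10 members, at most 3 pathway genes in each direction per comparison (and any at 0 in a named population), and the 3 genes most like each member with a mean of at least 10 CPM in a population. Levels, shares, combinations and log2 ratios of (mean CPM + 1) were computed in Python 3.11.15 with numpy 2.4.6, pandas 2.3.3 and scipy 1.17.1, and figures in matplotlib 3.10.9. No statistical test across populations was run, since each is 1 sample. Comparisons used genes with a mean of at least 10 CPM over both populations and a threshold of 2-fold. The step was tested on simulated data for E10.5 over E8.5 Endo. In those data 200 of 200 changed genes were called in the right direction and 0 of 8264 unchanged genes were called. Between lanes of the same population in the real cells, 4.93% of 8254 genes at E7.25 and 6.39% of 8423 at E7.75 were past 2-fold. How often an unchanged gene is called in the real cells was not tested. Levels per kilobase used the union of exons in GENCODE release 21 of the mouse annotation. No doublet caller was run, and the 147 captured cells outside the filter entered only as an alternative. Splits of cells by a member, and leaving out the highest cell of each gene, were chosen after seeing the data. The authors' own comparisons were not used. A few genes that the naming rule selects are not reported here.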

Additional observations from a re-analysis of the deposited data

Results flagged for a closer look

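A group of 6 pathway genes outside the authors' gene filter was found in more than 3 cells of at least 1 population, read from the unfiltered counts and used in no comparison. The limits given are the shares that a count of 0 allows, so a share above one says only that the gene was seen. Each gene was flagged in the population with its highest share. Dll3, a ligand-like protein known from mesoderm and somites, was found in 32.7% of E7.25 cells, where 0 cells would allow up to 2.04%, and in 1.43% of E7.75 cells. Lfng, a glycosyltransferase that modifies Notch receptors, was found in 28.0% of Mac cells (limit 12.0%), and in 16.4% of E10.5 Endo against 0 of 79 E8.5 Endo cells. Hes7, a repressor of the somite clock, was found in 19.2% of E10.5 Mk (limit 4.11%) and 18.9% of E8.5 Mk cells, and it shares exon bases with 9130213A22Rik on the other strand, whose reads cannot be told apart. Neurl1b, a ubiquitin ligase, was found in 9.84% of E10.5 Endo cells (limit 4.92%), with 6 counts in all over 6 cells. Nrarp, a Notch target that limits the pathway, was found in 6.33% of E8.5 Endo cells (limit 3.80%) and shares exon bases with Gm38287. Dlk2, a Delta-like protein, was found in 2.72% of E7.25 cells (limit 2.04%) and shares exon bases with Abcc10.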

How the results depend on the processing

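No paired analysis was possible because replicate numbers only name cells and the values come from no test. The count of 26 pairs of a member and a population with over 50% of cells stayed within 1.5 times under 3 alternatives. Except where a cause follows from how a setting is built, the cause was not tested.

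Without the filter on low values, members past 2-fold were 2 in E7.75 over E7.25, 4 in E8.5 over E8.25 HPC, 2 in E10.5 over E9.5 HPC, 2 in E10.5 over E8.5 HPC, 1 in Mk by stage, 8 in E8.5 HPC over Endo, 6 in E8.5 Mk over HPC, 9 in E10.5 Mk over Endo and 2 in Mac over HPC, and pathway genes, in the order of the comparisons plot, were 3, 16, 3, 3, 8, 10, 14, 9, 20, 19 and 14, as more genes were tested. At a 4-fold threshold, members were 2 in Endo by stage and 0 in Mac, and pathway genes in that order 0, 2, 0, 0, 0, 0, 0, 1, 6, 7 and 5. With a pseudocount of 10 CPM, members were 3 in Endo by stage, and pathway genes 0 in E7.75 over E7.25, 0 in E8.5 over E8.25 HPC, 3 in E10.5 over E8.5 HPC and 2 in E8.5 HPC over Endo.

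With the mean of log2 values, members were 0 in E10.5 over E9.5 HPC, 1 in Mk by stage, 1 in E8.5 Mk over HPC and 0 in Mac (Notch2 -0.18), and pathway genes 0 in E7.75 over E7.25, 15 in Endo by stage, 0 in E8.5 over E8.25 HPC, 2 in E10.5 over E9.5 HPC, 8 in E8.5 Mk over HPC and 17 in Mac. The log2 ratio then changed sign for Mfng (-1.20) and Spen (-0.28) in Endo by stage, Psenen (0.60), Pofut1 (0.25), Mfng (2.18) and Ep300 (0.52) in E10.5 HPC over Endo, Psenen (0.42) in E10.5 Mk over Endo, and Psenen (-0.19), Numb (-1.18) and Spen (-0.30) in Mac. Without the highest cell of each gene, Mfng was at -1.06 in Endo by stage and 1.27 in E10.5 HPC over Endo, Numb was at -0.33 in Mac, members were 1 in E8.5 Mk over HPC and 0 in Mac, and pathway genes were 0 in E7.75 over E7.25, E8.5 over E8.25 HPC and E10.5 over E9.5 HPC and 6 in E10.5 Mk over Endo.

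Over all captured cells, members were 1 in E8.5 Mk over HPC and 0 in Mac. With CPM from each cell's own total, members were 1 in E8.5 Mk over HPC and pathway genes 0 in E8.5 over E8.25 HPC. Thinned to 800000 counts, members were 2 and pathway genes 0 in E10.5 over E9.5 HPC, and Psenen was at 0.075 in E10.5 HPC over Endo. Lane 7 or lane 8 of E7.75 over lane 7 of E7.25 gave 1 member each (Jag1 at -1.30 and Hes1 at 1.07). Asking for 10 counts, receptor and ligand met in 46.9% and 29.3% of E7.25 and E7.75 cells, 31.5%, 21.3% and 10.9% of E8.25, E8.5 and E9.5 HPC and 75.9% and 85.2% of E8.5 and E10.5 Endo cells. Target pairs were then 3 in E8.5 Endo and 2 in E7.75 cells (also 2 when thinned, against 1), and the Notch1 difference in the haemato-endothelial class was 6.88 points at E7.25 and 14.9 at E7.75, against 23.3 and 19.8, and 14.5 in lane 6 of E7.25. Spearman's rho kept 2 of the 24 most alike genes.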
